A study of Mus musculus with 2 samples.

Results

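The genes described here are 31 genes of fatty acid oxidation and of the response to PPAR alpha, a nuclear receptor that fatty acids activate in liver. They were chosen by symbol for their function, with earlier results of these data known, out of 22609 gene symbols in each count file. All 31 had at least 50 reads summed over both libraries, the minimum for a gene to count as measured, which 11411 genes met. By where their products work, 16 are mitochondrial, 7 peroxisomal and 4 microsomal, that is, of the endoplasmic reticulum. The other 4 are a cytosolic enzyme (Acot1), a pantetheinase anchored at the cell surface (Vnn1) and a pair of transcriptional regulators (Ppargc1a and Creb3l3).

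The study sequenced liver RNA of mice labelled wild type or knockout for Lrg1, which encodes a secreted glycoprotein. There were 2 libraries of male C57BL/6 mice, 1 labelled wild type (C57BL/6J in the treatment notes) and 1 labelled Lrg1 knockout, a deletion in the whole body. Both groups were fed 45% of calories as fat for 16 weeks, from 8 weeks of age, and no group on a standard diet was analysed here. The labels do not give the number of mice behind a library, the part of Lrg1 that was deleted, the hour of collection or any fast before it. With 1 library per group no difference has a replicate check, so each compares these libraries and not the genotypes. Intervals of ratios are exact 95% intervals, those of a difference between 2 log2 ratios rest on a normal approximation, and both cover counting error alone. Since reads carried no molecular identifier and need not be independent molecules, this error can be larger than the intervals say.

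Fatty acids enter mitochondria as carnitine esters and are shortened there in cycles of dehydrogenation, hydration, a second dehydrogenation and thiolysis. Peroxisomes shorten very long and branched chains by a parallel set of enzymes, and the CYP4A enzymes of the endoplasmic reticulum oxidise the far end of the chain. In mouse liver, PPAR alpha raises many genes of all 3 routes during fasting and under fat feeding, and it acts as a dimer with RXR on elements made of repeated AGGTCA half-sites.

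Reads in genes numbered 23311906 for wild type and 18738397 for the library labelled Lrg1 knockout. Ratios below set the library labelled knockout over wild type. For Lrg1 itself, on 26958 and 17572 reads, the ratio was 0.766 (0.751 to 0.780), so its reads were not lost from the library with the knockout label. All 10 hepatocyte markers were measured, and they summed to 124230 and 109605 CPM (reads per 1000000, with library sizes scaled by TMM), with a median log2 ratio of -0.08. Of these markers 3 were above 0 and 7 below, from Cps1 at -0.54 to Tat at 0.66. Markers of heart muscle (3 genes) and skeletal muscle (5 genes), which also burn fat, summed to at most 0.265 and 1.61 CPM in either library. Of the brown fat markers, Ucp1 was at 0 in both libraries and Dio2 and Cox8b had at most 2 reads, but Cidea, a lipid droplet gene on the same list, had 1667 and 30. Of 5 white fat markers, Lep and Plin1 were at 0 in both, and Adipoq had 1 and 4 reads. The list summed to 43.2 and 14.9 CPM, nearly all from Cfd (711 and 104 reads) and Fabp4 (266 and 179 reads). Of 8 genes of sinusoidal endothelium 7 were above a log2 ratio of 0 (median 0.59), from Lyve1 at -0.47 to Dnase1l3 at 1.04. Of 6 Kupffer cell genes 5 were below 0 (median -0.49), from Marco at -2.04 to Clec4f at 0.15. Of 6 stellate cell genes 5 were above 0 (median 0.13), from Col1a1 at -1.07 to Reln at 0.27, and 3 of the 6 intervals included a ratio of 1. Only 2 of 5 bile duct genes were measured. In bulk tissue, fewer cells of a type and less RNA per cell cannot be told apart. Of 17 circadian clock genes, 9 were lower by 2-fold or more and 2 higher by as much (median -1.11). All 10 male-biased liver genes were higher (median 1.12). Of 10 female-biased genes 4 were measured, and all 4 were at least 2-fold lower (median -3.34). Over all measured genes, 1.7% were higher and 2.5% lower by 2-fold or more. The part of cell makeup, hour of collection and hormonal state in the differences below was not tested.

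Several of the 31 genes have close copies, and since only reads with a single alignment were counted, the copies bear on the values of the genes that have them. The transcripts of each gene were cut into all words of 50 bases, the read length, and each word was looked up in the transcripts of every other locus of GENCODE M21 (GRCm38, while the submitters' notes name mm9). For 17 genes every word was found at no other locus, and for 22 at least 95% were. These counts leave out words shared with genes annotated over the same place, which made up 57.7% of the words of Etfb, 23.5% of Acadvl (with Dvl2), 18.6% of Acot3, 10.9% of Acot4, 10.7% of Acaa1b, 8.87% of Acaa1a and 0.655% of Hadha. The next pairs show, from the GENCODE transcripts, how alike the copies are in 1 stretch taken at the same place in each pair, not chosen for its likeness. Each shows coding bases 601 to 660 of the first gene and the aligned bases of the second, 5′ to 3′, with differing bases in capitals.
Acaa1a: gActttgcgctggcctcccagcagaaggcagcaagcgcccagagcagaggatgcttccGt
Acaa1b: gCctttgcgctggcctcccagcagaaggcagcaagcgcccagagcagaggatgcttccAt
Cyp4a10: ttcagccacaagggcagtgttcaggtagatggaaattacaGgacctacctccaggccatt
Cyp4a31: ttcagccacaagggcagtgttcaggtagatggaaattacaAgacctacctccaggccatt
Acot1: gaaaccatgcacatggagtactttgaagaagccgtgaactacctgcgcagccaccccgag
Acot2: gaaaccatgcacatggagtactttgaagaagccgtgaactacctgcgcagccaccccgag

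The thiolase genes Acaa1a and Acaa1b, both on chromosome 9, matched at 96.5% of 1275 aligned coding bases, with 2 differences in the stretch shown and an identical run of 327 bases elsewhere. Cyp4a10 and Cyp4a31, neighbours on chromosome 4, matched at 96.6%, with 1 difference in the stretch shown. Acot1 and Acot2, neighbours on chromosome 12, matched at 95.5% of 1239 aligned bases and did not differ in the stretch shown, which lies from base 724 to 783 of the Acot2 coding sequence. A 50-base read from inside that stretch could not be given to either gene.

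**Figure D1:**
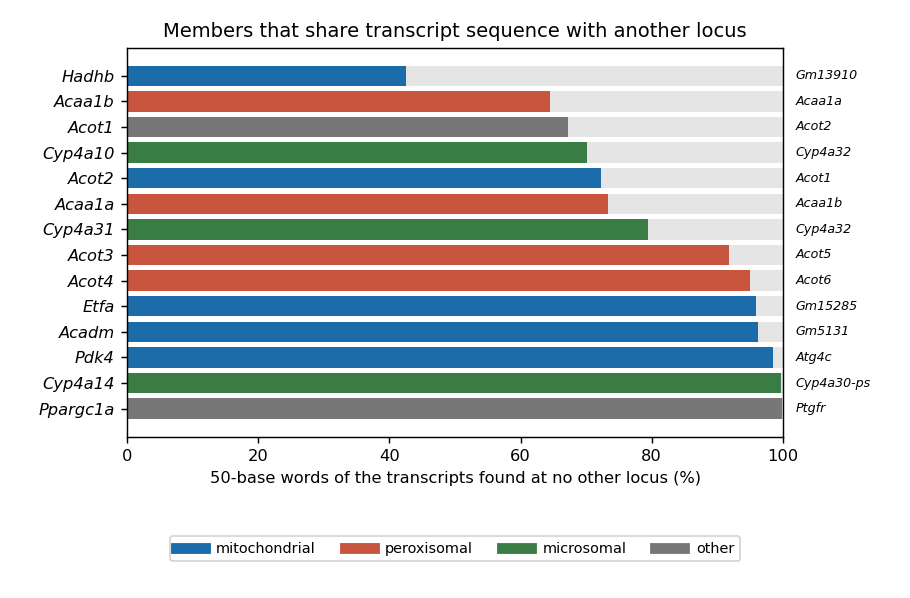
Share of the 50-base words of a gene's transcripts that were found at no other locus (coloured bars, in percent), for the 14 genes with any shared word. The name at the right is the locus that shared most words. Hadhb stood lowest, at 42.5%, and the Acaa1, Acot1, Acot2, Cyp4a10 and Cyp4a31 genes lay between 64.5% and 79.4%.

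Per kilobase of exon, 2 of the 3 microsomal omega hydroxylases, Cyp4a14 and Cyp4a10, had the highest levels of the 31 genes in both libraries. Levels between genes are given as CPM per kilobase of exon, since longer transcripts give more reads. Cyp4a14 stood first at 2057 CPM per kilobase (wild type) and 2257 (labelled knockout), and Cyp4a10 second at 1208 and 1467, while Cyp4a31 stood at 29.1 and 39.2. The peroxisomal thiolase Acaa1b came next (1056 and 1438), then the mitochondrial thiolase Acaa2 (849 and 795). At the other end stood the coactivator Ppargc1a at 1.63 and 1.69, 1260-fold below Cyp4a14 in wild type. Ranked by this level, no gene moved by more than 2 places between the libraries, and 9 kept their place. Counted per kilobase of unique words, Cyp4a14 stood at 2062 (wild type) and 2263 (labelled knockout), Cyp4a10 at 1721 and 2091, and Acaa1b at 1639 and 2232. By that count Acaa1b was above Cyp4a10 in the library labelled knockout, so the order of these genes depends on how shared words are treated. All 31 together took 2.20% of wild-type reads in genes (2.198% to 2.210%) and 2.56% in the library labelled knockout (2.553% to 2.567%; exact binomial intervals). Such shares are scaled by total count. Under TMM scaling the 31 genes summed to 22683 CPM (wild type) and 24878 CPM (labelled knockout), a log2 ratio of 0.13.

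**Figure D2:**
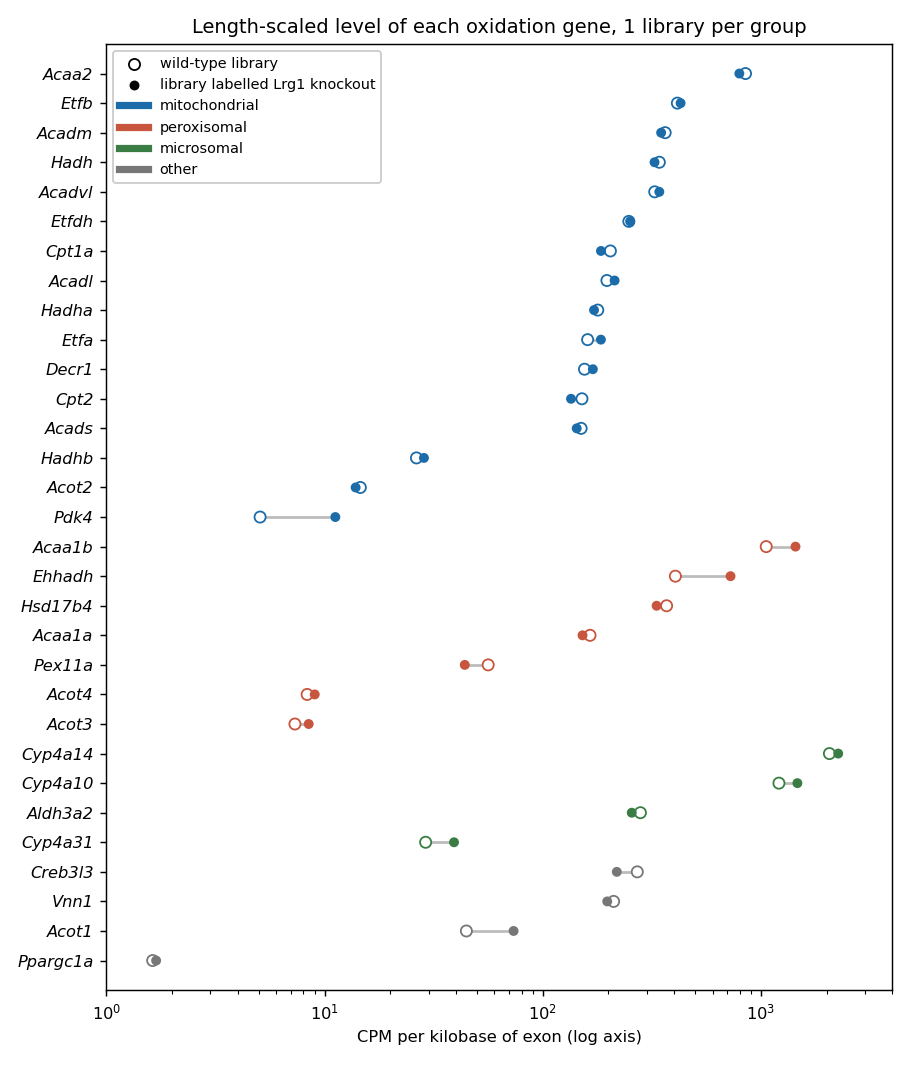
Level of each of the 31 genes in CPM per kilobase of exon (log axis), with an open circle for the wild-type library, a filled circle for the library labelled Lrg1 knockout and a grey line joining them. Colours mark the compartment of the product. Most pairs of circles overlap, and Pdk4, Ehhadh and Acot1 show the longest lines.

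Most oxidation genes differed little between the libraries, as did most measured genes. Of the 31, 24 had a log2 ratio within 0.3 of 0, as had 65.2% of all measured genes. Only Pdk4 was 2-fold or more higher and 0 genes were lower by as much, where 1.7% and 2.5% of measured genes were (4.2% in all). Pdk4, Ehhadh and Acot1 were at least 1.5-fold higher and 0 genes 1.5-fold lower, against 5.85% and 6.91% of measured genes. The median log2 ratio was 0.05, beside -0.01 over all measured genes, and it turned to -0.06 without the Acot, Acaa1 and Cyp4a families. There were 17 genes above 0 (48.3% of measured genes were) and 14 below under TMM scaling, but 22 and 9 when libraries were scaled by total count. That scaling moves every gene by about 0.08, which is as large as many of the differences here. The counting interval lay above a ratio of 1 for 13 of the 31 members and below it for 13 of the 31, against 22.0% and 26.6% of measured genes. All members but Ppargc1a had at least 1000 reads in all, so genes of like depth are a closer comparison. Of the 4981 genes with that many reads, 3687 lay within 0.3 of a log2 ratio of 0. At 2-fold or more, 47 of them were higher and 82 lower, and at 1.5-fold 128 and 260. Their counting intervals lay above 1 for 1260 and below it for 1920.

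**Figure D3:**
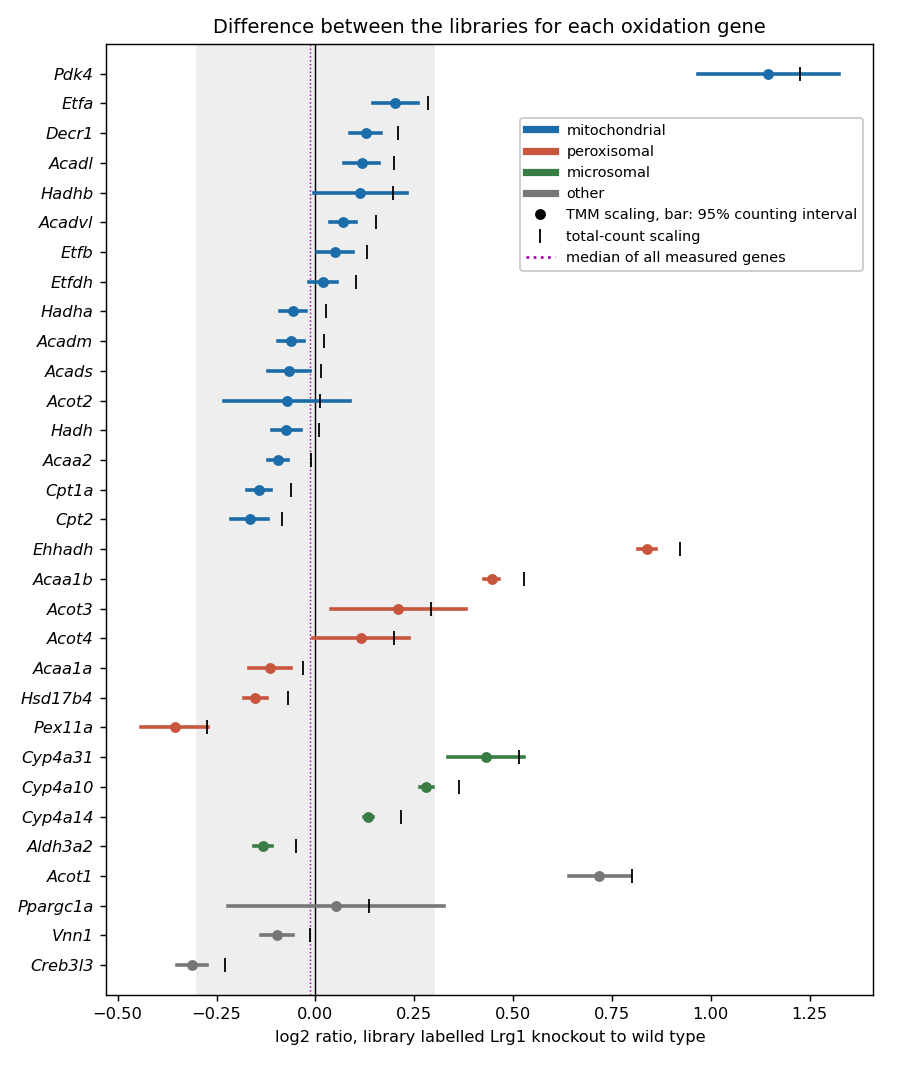
Log2 ratio of the library labelled Lrg1 knockout to wild type for each gene under TMM scaling (points) with its exact 95% counting interval (bars), and under total-count scaling (black ticks). The grey band spans 0.3 either side of 0 and the dotted line is the median of all measured genes. All mitochondrial genes but Pdk4 lie inside the band, while 3 of 7 peroxisomal genes lie outside it.

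In mitochondria, the genes of the oxidation cycle itself were close to equal in the 2 libraries. Without Pdk4, the 15 mitochondrial genes had log2 ratios between -0.17 (Cpt2) and 0.20 (Etfa), with 7 above and 8 below 0, and summed to 7702 CPM (wild type) and 7563 CPM (labelled knockout). The median over all 16 was -0.02 under TMM scaling and 0.06 under total count, so it has no settled sign.

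Both enzymes of the carnitine shuttle had slightly fewer scaled reads in the library labelled knockout. Cpt1a, the outer membrane transferase whose inhibition by malonyl-CoA sets the rate of entry, had 19956 reads in wild type (881 CPM) and 15381 in the library labelled knockout (798 CPM), a ratio of 0.905 (0.887 to 0.925). Cpt2, which frees the acyl group inside, had 8124 and 6162 reads (359 and 320 CPM), a ratio of 0.891 (0.862 to 0.921). The log2 difference between these ratios was 0.02, with an interval from -0.03 to 0.08. Both stayed below 0 under each scaling.

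The acyl-CoA dehydrogenases open each cycle and divide the chain lengths among them, and all 4 differed by less than 1.1-fold. Acadvl, for very long chains, had 15999 and 14296 reads (706 and 741 CPM; ratio 1.05, 1.03 to 1.07). Acadl, for long chains, had 8539 and 7882 reads (377 and 409 CPM; ratio 1.08, 1.05 to 1.12). Acadm, for medium chains, had 16866 and 13757 reads (745 and 713 CPM; ratio 0.958, 0.937 to 0.980). Acads, for short chains, had 6349 and 5158 reads (280 and 267 CPM; ratio 0.954, 0.920 to 0.990). The first 2 were thus above 1 under every scaling, and the last 2 were below 1 under TMM but turned to log2 ratios of 0.021 and 0.015 under total count.

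The later steps of the cycle also differed by less than 1.1-fold. Hadh, the dehydrogenase for short chains, had 13860 and 11215 reads (612 and 582 CPM; ratio 0.951, 0.927 to 0.975). Acaa2, the matrix thiolase, had 29157 and 23255 reads (1287 and 1206 CPM; ratio 0.937, 0.921 to 0.953). Decr1, the reductase needed for polyunsaturated chains, had 10409 and 9677 reads (460 and 502 CPM; ratio 1.09, 1.06 to 1.12). Hadh turned to a log2 ratio of 0.01 under total count, and Acaa2 to -0.01.

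Hadha and Hadhb encode the subunits of the trifunctional protein, which carries out the last 3 steps for long chains on the inner membrane. Their start sites lie head to head on chromosome 5, Hadha on the minus and Hadhb on the plus strand, with 272 bases between them. The stretch is chr5:30154981-30155252 (GRCm38.p6, RefSeq, plus strand), and it is shown because it lies directly upstream of both genes, whose reads can then be compared. Capitals mark GGGCGG, searched on both strands.
Hadha-Hadhb: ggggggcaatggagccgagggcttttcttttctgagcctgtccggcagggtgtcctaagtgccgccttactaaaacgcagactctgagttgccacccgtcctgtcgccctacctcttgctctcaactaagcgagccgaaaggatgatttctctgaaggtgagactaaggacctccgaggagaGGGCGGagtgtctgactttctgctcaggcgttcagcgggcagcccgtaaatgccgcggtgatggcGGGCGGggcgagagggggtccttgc

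GGGCGG, the core of a GC box, occurs 2 times in this stretch, and 35.7% of 32851 RefSeq promoter windows of 300 bases hold it. Hadha had 16254 and 13302 reads (718 and 690 CPM; ratio 0.961, 0.940 to 0.984). Hadhb had 1243 and 1145 reads (54.9 and 59.4 CPM; ratio 1.08, 0.998 to 1.17). Per kilobase of exon Hadha was thus 6.77-fold above Hadhb in wild type and 6.02-fold in the other library. Of the Hadhb words 56.6% are also in Gm13910, a processed pseudogene on another chromosome, whereas no Hadha word is found at another locus that does not overlap it. Counted per kilobase of unique words, the gap was 2.88-fold and 2.56-fold. This counts exact matches only, and whether reads lost to the pseudogene account for the rest was not tested. The ratios of the subunits differed by -0.17 on the log2 scale (-0.29 to -0.05).

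Electrons from the dehydrogenases pass through the electron transfer flavoprotein (Etfa and Etfb) and its oxidoreductase (Etfdh) to ubiquinone. Etfa had 5061 and 4956 reads (223 and 257 CPM; ratio 1.15, 1.11 to 1.20). Etfb had 8369 and 7370 reads (369 and 382 CPM; ratio 1.03, 1.002 to 1.07). Etfdh had 13557 and 11697 reads (598 and 607 CPM; ratio 1.01, 0.989 to 1.04). All 3 were above 1 under each scaling, and Etfa exceeded its partner by 0.15 on the log2 scale (0.08 to 0.23). Etfb shares 57.7% of its words with Gm45233, a gene annotated over the same place, so how its reads were divided depends on the annotation used for counting.

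Pdk4 and Acot2 act in mitochondria but outside the cycle. Pdk4, the kinase that shuts pyruvate dehydrogenase and so spares glucose when fat is burned, had 400 reads in wild type (17.7 CPM) and 753 in the library labelled knockout (39.0 CPM), a ratio of 2.21 (1.96 to 2.503). It stood at percentile 98.9 of the log2 ratios of measured genes and was the only one of the 31 past 2-fold, from a low level of 5.07 CPM per kilobase. Of its relatives, Pdk1 was at a log2 ratio of 0.05 and Pdk2 at -0.34. Acot2, the mitochondrial thioesterase that splits acyl-CoA, had 726 and 588 reads (32.0 and 30.5 CPM; ratio 0.951, 0.852 to 1.06).

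The peroxisomal genes went apart from each other. The 7 genes summed to 4476 CPM (wild type) and 5933 CPM (labelled knockout). Their share of reads in genes was 0.435% and 0.611%. Ehhadh and Acaa1b made the difference, since the other 5 had a median log2 ratio of -0.11 and 2 of them were above 0.

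Ehhadh, the bifunctional enzyme for straight and dicarboxylic chains and a textbook PPAR alpha target, had 27357 reads in wild type (1208 CPM) and 41663 in the library labelled knockout (2161 CPM). The ratio was 1.79 (1.76 to 1.82), a log2 ratio of 0.84 at percentile 97.3. Hsd17b4, the second bifunctional enzyme, which serves branched chains and bile acid precursors, had 22452 and 17202 reads (991 and 892 CPM; ratio 0.900, 0.882 to 0.918). The log2 ratios of Ehhadh and Hsd17b4 were 0.99 apart (0.95 to 1.03). No 50-base word of either transcript was found at another locus, by exact match.

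The thiolase copies that close the peroxisomal cycle also parted. Acaa1b had 40409 reads in wild type (1784 CPM) and 46846 in the library labelled knockout (2429 CPM), a ratio of 1.36 (1.34 to 1.38). Acaa1a had 6572 and 5168 reads (290 and 268 CPM), a ratio of 0.924 (0.891 to 0.958). The log2 ratio of Acaa1a was thus 0.56 below that of Acaa1b (difference -0.56, -0.62 to -0.50), and the levels per kilobase were 1056 for Acaa1b and 165 for Acaa1a in wild type. Since 35.5% of the Acaa1b words and 26.7% of the Acaa1a words occur in the other gene, both levels are uncertain.

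Pex11a, a membrane protein of peroxisome division that PPAR alpha agonists raise, had the lowest log2 ratio of the 31 genes. It had 2854 reads in wild type (126 CPM) and 1898 in the library labelled knockout (98.4 CPM), a ratio of 0.781 (0.737 to 0.828). Among peroxisomal thioesterases, Acot3 had 570 and 561 reads (25.2 and 29.1 CPM; ratio 1.16, 1.03 to 1.30). Acot4, which also splits succinyl-CoA and glutaryl-CoA, had 1170 and 1079 reads (51.6 and 56.0 CPM; ratio 1.08, 0.996 to 1.18).

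Acot1, the cytosolic relative that PPAR alpha agonists induce, had 2299 reads in wild type (101 CPM) and 3220 in the library labelled knockout (167 CPM), a ratio of 1.65 (1.56 to 1.74). The 4 thioesterase genes lie next to each other on chromosome 12 in the order Acot2, Acot1, Acot4, Acot3, and they did not share a ratio. Acot1 exceeded its neighbour Acot2 by 0.79 on the log2 scale (0.62 to 0.97), while Acot3 and Acot4 were 0.09 apart with an interval (-0.11 to 0.30) that included 0. Of the Acot1 words 67.3% were unique, and 23.5% were also in Acot2.

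In the endoplasmic reticulum, the 3 omega hydroxylases were higher in the library labelled knockout under each scaling. Cyp4a14, which with Cyp4a10 is among the most strongly PPAR alpha-induced genes of mouse liver, had 116306 reads in wild type (5134 CPM) and 108657 in the library labelled knockout (5635 CPM), a ratio of 1.10 (1.09 to 1.11). Cyp4a10 had 57702 and 59681 reads (2547 and 3095 CPM), a ratio of 1.22 (1.20 to 1.23). Cyp4a31 had 1652 and 1897 reads (72.9 and 98.4 CPM), a ratio of 1.35 (1.26 to 1.44). The 3 genes stand in a row on chromosome 4 (Cyp4a14, Cyp4a10, Cyp4a31), and together they took 0.754% of wild-type reads in genes and 0.908% of those in the other library. Cyp4a14 is almost free of shared words (99.8% unique), while 29.8% of the Cyp4a10 words and 20.6% of the Cyp4a31 words occur at other loci, most of them in Cyp4a32.

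Aldh3a2, the fatty aldehyde dehydrogenase that finishes omega oxidation, went the other way. It had 33741 and 26209 reads (1489 and 1359 CPM), a ratio of 0.912 (0.898 to 0.927). The microsomal median log2 ratio was 0.21, the highest of the compartments, but it rests on 4 genes of which 3 are neighbours. Of these neighbours, Cyp4a10 and Cyp4a31 share sequence with other loci.

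The last 3 members are Vnn1, Creb3l3 and Ppargc1a. Vnn1, a pantetheinase that PPAR alpha controls in liver, had 11555 and 9196 reads (510 and 477 CPM; ratio 0.935, 0.910 to 0.961). Creb3l3, a membrane-bound transcription factor of the fasting liver that works together with PPAR alpha, had 14085 and 9659 reads (622 and 501 CPM; ratio 0.806, 0.785 to 0.827). Ppargc1a, the coactivator PGC-1 alpha, had 239 and 211 reads (10.6 and 10.9 CPM; ratio 1.04, 0.858 to 1.25). Creb3l3 thus stood with Pex11a at the low end, and Ppargc1a showed no difference detectable at this depth.

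Promoters of 24 of the 31 genes were matched in the RefSeq table (26 windows, from 250 bases before to 50 after a start, GRCm38.p6). They were searched on both strands for the element that PPAR alpha and RXR bind, 2 copies of AGGTCA with 1 base between. No window held it with 0 or 1 mismatches. With at most 2 mismatches, 3 of 26 windows did (11.5%), as did 3.86% of all 32851 windows. The closest matches are shown with the matching 13 bases in capitals, read along the strand of the gene.
Acot4: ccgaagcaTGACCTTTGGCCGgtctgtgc
Creb3l3: ctgtaagtAGGGGAGAGGTCAcacagacc
Etfa: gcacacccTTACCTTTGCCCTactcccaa

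They lie at chr12:84038358-84038386 (plus strand) for Acot4, at chr10:81092780-81092808 (minus strand) for Creb3l3 and at chr9:55512300-55512328 (minus strand) for Etfa. The 3 genes had log2 ratios of 0.12, -0.31 and 0.20. The windows of Pdk4, Ehhadh, Acaa1b and Acot1, the matched genes with the highest ratios, held no such match, which says only that these letters are not within these 300 bases.

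Other genes of the pathway were taken from lists chosen by function, also with earlier results of these data known. Of 99 measured genes, 67 lay within 0.3 of a log2 ratio of 0, 39 were above and 60 below 0, with a median log2 ratio of -0.08, where 48.3% of all measured genes were above 0. At 2-fold or more, 2 of the 99 were higher and 3 lower, beside 1.7% and 2.5% of all measured genes. Among 11 entry genes, Acsl1, the main acyl-CoA synthetase of liver, was highest (58042 and 62800 reads; 0.35) and Acacb, whose product malonyl-CoA inhibits Cpt1a, lowest (1311 and 684 reads; -0.71). Of 15 further mitochondrial enzymes 12 were below 0, from Acadsb of branched-chain breakdown at 0.30 to Acad9, a dehydrogenase needed for complex I assembly, at -0.67. Of 6 ketogenic genes, Slc16a1, a carrier that exports ketone bodies, was 2.41-fold higher (1802 and 3690 reads; log2 ratio 1.27).

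Among 21 other peroxisomal genes the median log2 ratio was -0.004. Nudt7, a coenzyme A hydrolase, was highest at 0.59 and Acox2, the oxidase for branched chains, lowest at -0.62. Of 13 other omega oxidation and thioesterase genes, Cyp4a12b, a male-specific hydroxylase with a close copy in Cyp4a12a, was 2.18-fold higher (1206 and 2239 reads) and Acot9 lowest at -0.91 on 80 and 36 reads.

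Of 16 regulators, 14 were below 0 in the library labelled knockout, where 5895 of 11411 measured genes were, with a median log2 ratio of -0.26. The counting interval lay below a ratio of 1 for 10 of them, above it for 1, and included 1 for 5. Over all measured genes it lay below 1 for 26.6% and above for 22.0%. Among the 4981 genes with at least 1000 reads it lay below 1 for 1920 and above for 1260. Lpin1, a phosphatidate phosphatase that also acts as a coactivator with PPAR alpha, had 5230 and 537 reads, 8.28-fold higher in wild type. Ppargc1b, the coactivator PGC-1 beta, was 2.501-fold higher in wild type on 180 and 61 reads, and Sirt1, a deacetylase, stood highest at 0.68. Of 18 other PPAR alpha targets, 12 were below 0 (median -0.20), from Retsat, a retinol saturase, at 0.30 to Cidec, a lipid droplet protein, at -1.40 (3003 and 968 reads).

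**Figure D4:**
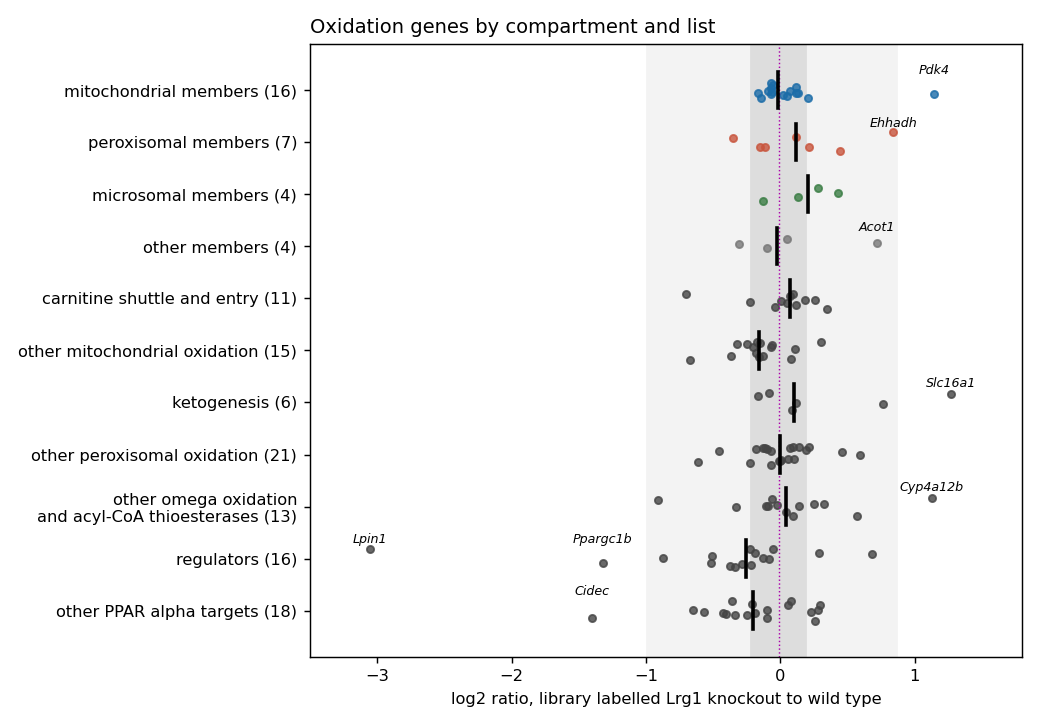
Log2 ratio of the library labelled Lrg1 knockout to wild type for the 31 genes by compartment (coloured) and for the other pathway lists (dark), 1 point per measured gene, with a black bar at each median and the number of genes in brackets. Shading spans the central 50% and 95% of all measured genes, from -0.22 to 0.19 and from -0.995 to 0.87. The medians of the 31 genes by compartment are -0.02 (mitochondrial), 0.12 (peroxisomal), 0.21 (microsomal) and -0.02 (other), beside a dotted line at -0.01.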

How the data were processed

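Raw read counts, whole numbers for each gene symbol, were deposited by the authors and used unchanged. Per the labels' protocols, poly(A) RNA was made into libraries with a stranded kit and read from a single end for 50 bases. Per the submitters' processing notes, bcl2fastq, TopHat2, HTSeq and build mm9 were used, and neither versions nor strand setting nor annotation is stated in the sources used here. Library sizes exclude the lines that name no gene. Reads in no gene made up 14.0% (wild type) and 14.4% (labelled knockout) of unique alignments.

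Counts were scaled with TMM in edgeR 4.0.16 under R 4.3.3 (factors 0.972 and 1.03). Ratios carry a prior count of 0.5, scaled to library size. Intervals of ratios are Clopper-Pearson given the summed count, and those of differences between log2 ratios come from the normal approximation to the log odds ratio. With a single library in each group, genotypes were not tested against each other and no p-value is given. A read was worth 0.0441 and 0.0519 CPM. Exon lengths (the union of exons of basic protein-coding transcripts) and transcript words came from GENCODE M21, neighbours and promoters from RefSeq. All 31 genes were accounted for, and 7 had no promoter entry. Of other pathway genes, those 2-fold apart and the highest and lowest of each list were named, except 1 that is not reported here. Pdk1 and Pdk2 were named outside this rule, after their values were seen. The members, compartments and lists were chosen with earlier results of these data known. Genes in 2 pathway lists (Mlycd and Cpt1b) were counted once in the total. The functions were tested on simulated data. Alternatives were other scalings (DESeq2 1.42.0 among them), thinning, a prior of 2, other minimums and folds, means, and leaving out gene families. Figures used matplotlib 3.10.9 and tables pandas 2.3.3, on Python 3.11.15 with scipy 1.17.1 and numpy 2.4.6.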

Additional observations from a re-analysis of the deposited data

Results flagged for a closer look

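Alignments that HTSeq set aside as not unique were many, and no comparison above uses them. Their share of all lines counted was 50.3% for wild type and 58.0% for the library labelled Lrg1 knockout, a share of lines and not of reads. How many came from Hadhb, Acaa1a, Acaa1b, Acot or Cyp4a transcripts was not tested.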

How the results depend on the processing

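Of the 31 genes, 25 kept the sign of their log2 ratio under the 3 other scalings, thinning and a prior count of 2. Under total-count scaling the ratio changed sign for Acadm (0.021), Acads (0.015), Hadh (0.0096) and Hadha (0.026), and for Hadha also (0.0024) when the top 20 genes were left out of the totals. These shifts follow from the scaling itself, which moved the median of all measured genes by 0.08 and 0.06. Acot2 under total count and Ppargc1a after thinning also changed sign, from values whose intervals included 0. The median of all members was 0.13 under total count, 0.11 with the top 20 left out, 0.10 as a mean and 0.02 after thinning, and it turned to -0.059 without the Acot, Acaa1 and Cyp4a families, which removes 9 genes. The mitochondrial median was 0.064, 0.041 and 0.069 (mean) and the microsomal median 0.29, 0.27 and 0.18 under the same 3 alternatives. The peroxisomal median stayed positive under the scalings, thinning, prior, minimums and mean, but was -0.11 without Ehhadh and Acaa1b, and leaving out the gene families was not run for it. The number of genes past the fold threshold was 3 higher at 1.5-fold and 0 at 3-fold, and 0 lower at both. Among genes 2-fold apart, the share that was higher moved from 40.5% to 48.5% under total count. Minimums of 1, 10 and 200 reads changed nothing, since all 31 genes had over 200 reads. No paired analysis was possible because each group has 1 library. Depth limits Ppargc1a most, at 239 and 211 reads.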
